A study of Homo sapiens with 12 samples.

Results

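AMACR, C1QTNF3 and their annotated readthrough C1QTNF3-AMACR are 3 of the 13951 genes in the deposited expression tables. They were taken by symbol because their exons overlap, and they were examined because earlier values of the readthrough row stood apart, being close to 0 in only 1 of the 4 groups. The members were therefore chosen by measured values, namely the level of C1QTNF3-AMACR in the HOXB13ko-LV-MEIS1 libraries and the differences built on it. Those differences are given here as a description with no test. Sums that include C1QTNF3-AMACR were tested in the comparisons with Control, and their p-values are not independent of the choice of that row. AMACR and C1QTNF3 were tested there too. They share exons with C1QTNF3-AMACR, so their p-values may not be independent of the choice either.

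The study used RNA-seq to ask which effects of the homeodomain protein MEIS1 on gene expression depend on its partner HOXB13. The samples were 12 libraries in 4 groups of 3 replicates, all made from CWR22Rv1, a permanent line of human prostate carcinoma cells that was derived from a relapsed xenograft. Control cells expressed exogenous Cas9 with no guide RNA. LV-MEIS1 cells expressed exogenous MEIS1 from a lentivirus, and the sources do not state whether they carry Cas9. HOXB13ko cells had HOXB13 targeted by CRISPR in a line with a Cas9 transgene, and were a pool recombined from 6 clones. HOXB13ko-LV-MEIS1 cells were the same pool after infection with the MEIS1 lentivirus, so both groups that carry the knockout label share that pool. All lines were kept in medium with serum and puromycin and grown for 48 h before harvest. Each group was 1 line, so an effect of the label and a property of the line cannot be told apart. The labels number the replicates without saying that they are separate cultures, so p-values measure only the spread between these samples, which may be technical.

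AMACR is an enzyme of peroxisomes and mitochondria that interconverts the stereoisomers of branched-chain fatty acyl-CoA esters, which lets them enter beta-oxidation, and its protein is a widely used tissue marker of prostate cancer. C1QTNF3 encodes a secreted protein of the C1q and TNF related family, also called cartonectin or CTRP3. A readthrough transcript arises when transcription of a gene continues into the next gene on the same strand and the exons of both are spliced together.

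On GRCh38 the 3 genes lie on the minus strand of chromosome 5. AMACR (ENSG00000242110) spans chr5:33986165-34008104, and C1QTNF3 (ENSG00000082196) lies upstream of it at chr5:34017858-34043213, with 9753 bases between the gene bodies. C1QTNF3-AMACR (ENSG00000273294) spans chr5:33987174-34124528 and has 1 annotated transcript of 9 exons and 3424 bases. Its first exon (chr5:34124418-34124528, 111 bases) is in neither gene and lies upstream of C1QTNF3, with 81204 bases between them. Exons 2 to 6 hold 653 bases, all of them in C1QTNF3 exons, and exons 7 to 9 hold 2660 bases, all of them in AMACR exons. The last of these, of 2329 bases, is also the last exon of the transcript AMACR-202. The coding frame of the annotated readthrough ends in its exon 8, upstream of the AMACR stop codon in the last exon, and the annotation gives it as a target of nonsense-mediated decay, the pathway that degrades such transcripts.

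**Figure D1:**
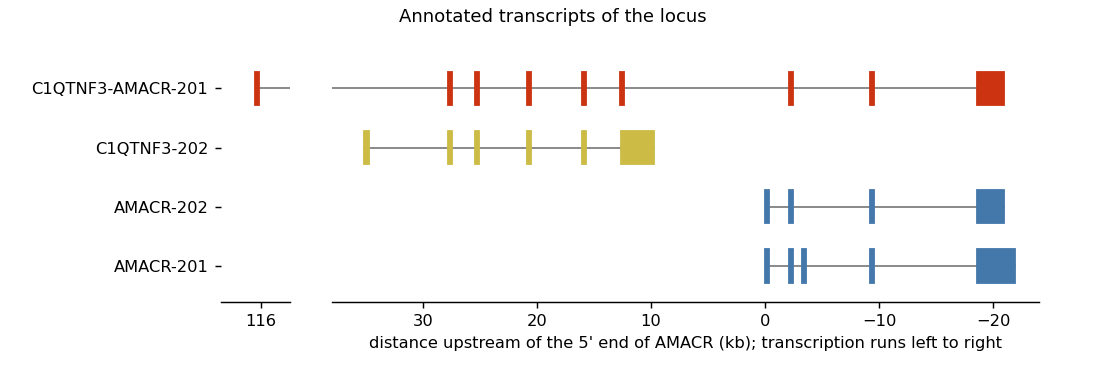
Exons (boxes) and introns (lines) of the readthrough transcript, of the long C1QTNF3 transcript and of 2 AMACR transcripts, by distance in kb upstream of the 5' end of AMACR, with the axis broken before the first readthrough exon. Boxes narrower than 0.35 kb are drawn 0.35 kb wide so that they can be seen, and every base of the readthrough after its first exon lies in an exon of one of the 2 genes.

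The bases that set the readthrough apart from its partners are few, and they are shown here because they are where its reads can be told from those of AMACR and C1QTNF3. The sequences below are read 5' to 3' along the transcript. The first is the join of readthrough exon 6, which ends inside the last C1QTNF3 exon, to exon 7, which is exon 2 of AMACR (chr5:34020587-34020611 joined to chr5:34005875-34005899). The second is the join of AMACR exon 1 to the same exon 2 (chr5:34007773-34007797 joined to chr5:34005875-34005899). The third is the C1QTNF3 sequence that runs on past the splice point to its stop codon (chr5:34020583-34020611). Capitals mark the AMACR exon 2 bases in the first and second, and in the third the 4 C1QTNF3 bases after the splice point, which end with the stop codon.
C1QTNF3-AMACR, exon 6 to exon 7: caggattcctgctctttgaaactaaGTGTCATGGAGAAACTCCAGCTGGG
AMACR, exon 1 to exon 2: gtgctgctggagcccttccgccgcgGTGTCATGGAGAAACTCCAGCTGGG
C1QTNF3, last exon to its stop codon: caggattcctgctctttgaaactaaGTAA
The left part of the first sequence is that of C1QTNF3 and its right part is that of AMACR, so only a read that crosses the join, or that touches the first exon, differs from both partners.

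The reads were 50 bases long, and 3375 windows of that length fit in the readthrough transcript. Of these windows, 2611 (77.4%) also occur in an AMACR transcript and 609 (18.0%) in a C1QTNF3 transcript. The remaining 155 (4.59%) occur in neither, 108 of them starting in the first exon and 47 crossing the join shown above, and 1 of the 155 also occurs in LINC02241. The overlap runs the other way as well. In AMACR-201, the 4108-base transcript with the full set of 5 exons, 63.2% of windows are also in the readthrough, and in the 2919-base AMACR-202 the share is 91.0%. Every window of AMACR-202 is either in AMACR-201 or in the readthrough. Of the long C1QTNF3 transcript, 16.4% of windows are shared. The authors' counting divided reads that match several transcripts by an estimate, so the level of C1QTNF3-AMACR rests on few bases. The values used here are per gene, so whether any read crossed the join, and how the shared reads were divided, was not examined. The sums of rows are given below beside the rows themselves.

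The tables give values as CPM, counts scaled to library size, and 3 reads correspond to between 0.105 and 0.175 CPM in these libraries. Estimated depth was 17100000 to 28600000 reads per library, no 2 libraries were identical, and correlations of log2 values within groups were 0.990 to 0.995. MEIS1 was between 45.8 and 49.6 CPM in LV-MEIS1 and between 29.3 and 30.1 CPM in HOXB13ko-LV-MEIS1, against at most 4.45 CPM in the other groups. HOXB13 mRNA was between 307 and 375 CPM in the 6 libraries labelled HOXB13ko or HOXB13ko-LV-MEIS1 and between 150 and 215 CPM in the other 6, which goes against a loss of the mRNA. This does not measure the protein, and directions below are those of the libraries so labelled. All 9 markers of luminal prostate epithelium that were looked up were listed, each at 39.5 CPM or more, and 2 of 8 markers of other cell types were listed, COL1A1 (13.6 to 34.6 CPM) and ACTA2 (4.70 to 15.9 CPM).

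AMACR itself was 13.1, 14.3 and 14.2 CPM in Control, 11.8, 11.9 and 11.4 CPM in LV-MEIS1, 5.90, 8.48 and 9.00 CPM in HOXB13ko and 10.9, 10.3 and 11.1 CPM in HOXB13ko-LV-MEIS1. Control was the highest group, every HOXB13ko library was below every library of the other groups, and HOXB13ko replicate 1 was the lowest of the 12. The order of the means was thus Control (13.9 ± 0.66 CPM, SD, n = 3), LV-MEIS1 (11.7 ± 0.28), HOXB13ko-LV-MEIS1 (10.8 ± 0.44) and HOXB13ko (7.80 ± 1.66), and no neighbouring groups in that order overlapped. Of all genes, 51.3%, 58.3% and 21.1% did not overlap in these comparisons, taken in that order. The share without overlap in all of them was not counted.

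The readthrough row was listed at 2.99, 0.617 and 1.58 CPM in Control and at 3.05, 3.32 and 2.85 CPM in LV-MEIS1. In HOXB13ko it was 4.98, 1.91 and 2.64 CPM, and in HOXB13ko-LV-MEIS1 it was 0.105, 0 and 0 CPM. Control and HOXB13ko each spanned several-fold between replicates and overlapped with each other and with LV-MEIS1, while all HOXB13ko-LV-MEIS1 values were at or below the value of 3 reads. Such values do not separate a low level from none. The means were 1.73 ± 1.19, 3.07 ± 0.24 and 3.18 ± 1.61 CPM in Control, LV-MEIS1 and HOXB13ko.

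C1QTNF3 was low in all groups, at 1.36, 2.25 and 1.88 CPM in Control, 1.98, 2.30 and 2.40 CPM in LV-MEIS1, 0.836, 1.99 and 1.55 CPM in HOXB13ko and 1.57, 1.89 and 1.32 CPM in HOXB13ko-LV-MEIS1. All neighbouring groups in the order of the means overlapped, from LV-MEIS1 (2.23 ± 0.22 CPM) through Control (1.83 ± 0.45) and HOXB13ko-LV-MEIS1 (1.59 ± 0.29) to HOXB13ko (1.46 ± 0.58). Per kb of annotated exon, the Control level was 3.20 ± 0.15 CPM per kb for AMACR, 0.505 ± 0.35 for the readthrough and 0.402 ± 0.10 for C1QTNF3, so AMACR was the highest of the 3 per length.

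**Figure D2:**
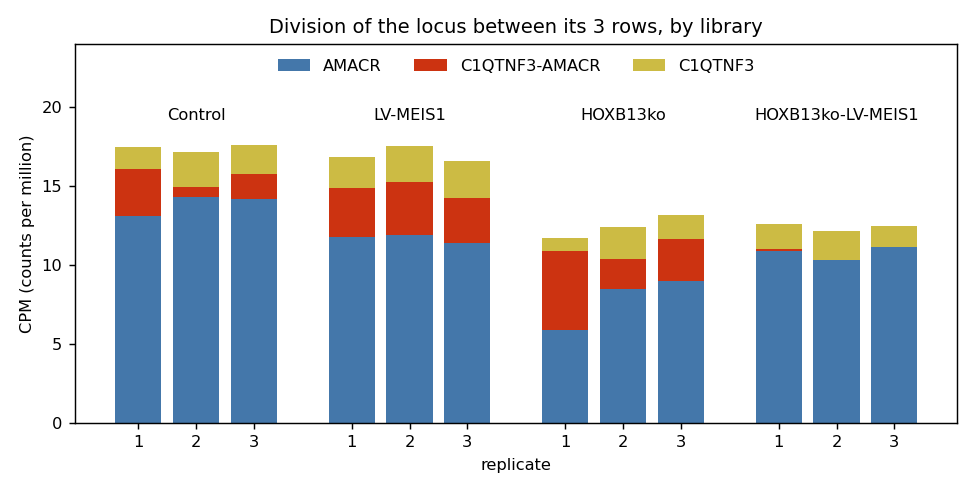
CPM of AMACR, C1QTNF3-AMACR and C1QTNF3 stacked in each of the 12 libraries, by group and replicate. The full bars reach 17.2 to 17.6 CPM in Control and 12.2 to 12.6 CPM in HOXB13ko-LV-MEIS1, and the readthrough segment is largest in HOXB13ko replicate 1 (4.98 CPM) and close to 0 in HOXB13ko-LV-MEIS1.

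In Control and HOXB13ko the rows of the locus varied against each other between replicates. In Control, replicate 1 had the highest readthrough value (2.99 CPM) together with the lowest AMACR (13.1 CPM) and C1QTNF3 (1.36 CPM), and replicate 2 had the lowest readthrough value (0.617 CPM) together with the highest AMACR (14.3 CPM) and C1QTNF3 (2.25 CPM). HOXB13ko replicate 1 likewise had the highest readthrough value of all libraries and the lowest AMACR and C1QTNF3. LV-MEIS1 did not follow this order, since its replicate 2 was highest for both AMACR and the readthrough. Expressed as a share of AMACR and the readthrough together, the readthrough took 18.6%, 4.13% and 10.02% in the Control libraries and 20.6%, 21.8% and 20.01% in LV-MEIS1. It took 45.8%, 18.4% and 22.7% in HOXB13ko, and 0.960%, 0% and 0% in HOXB13ko-LV-MEIS1.

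Added together, AMACR and C1QTNF3-AMACR were steady within each group. The sum was 15.6 ± 0.60 CPM in Control (range 14.9 to 16.1), 14.8 ± 0.51 in LV-MEIS1 (14.2 to 15.2), 11.0 ± 0.63 in HOXB13ko (10.4 to 11.6) and 10.8 ± 0.45 in HOXB13ko-LV-MEIS1 (10.3 to 11.1). The summed values thus formed a higher set, from 14.2 to 16.1 CPM, in Control and LV-MEIS1, and a lower set, from 10.3 to 11.6 CPM, in both groups with the HOXB13ko label, with overlap inside each set and none between them. Of all genes, 44.9% did not overlap between HOXB13ko and Control and 58.3% between HOXB13ko-LV-MEIS1 and LV-MEIS1. The share that forms such sets was not counted. The sum of all 3 rows fell into the same sets, at 17.4 ± 0.23 and 17.0 ± 0.48 CPM in Control and LV-MEIS1 and at 12.4 ± 0.74 and 12.4 ± 0.20 CPM in HOXB13ko and HOXB13ko-LV-MEIS1. C1QTNF3 and the readthrough together did not, and were 3.56 ± 0.75 CPM in Control, 5.30 ± 0.30 in LV-MEIS1, 4.64 ± 1.03 in HOXB13ko and 1.63 ± 0.29 in HOXB13ko-LV-MEIS1.

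**Figure D3:**
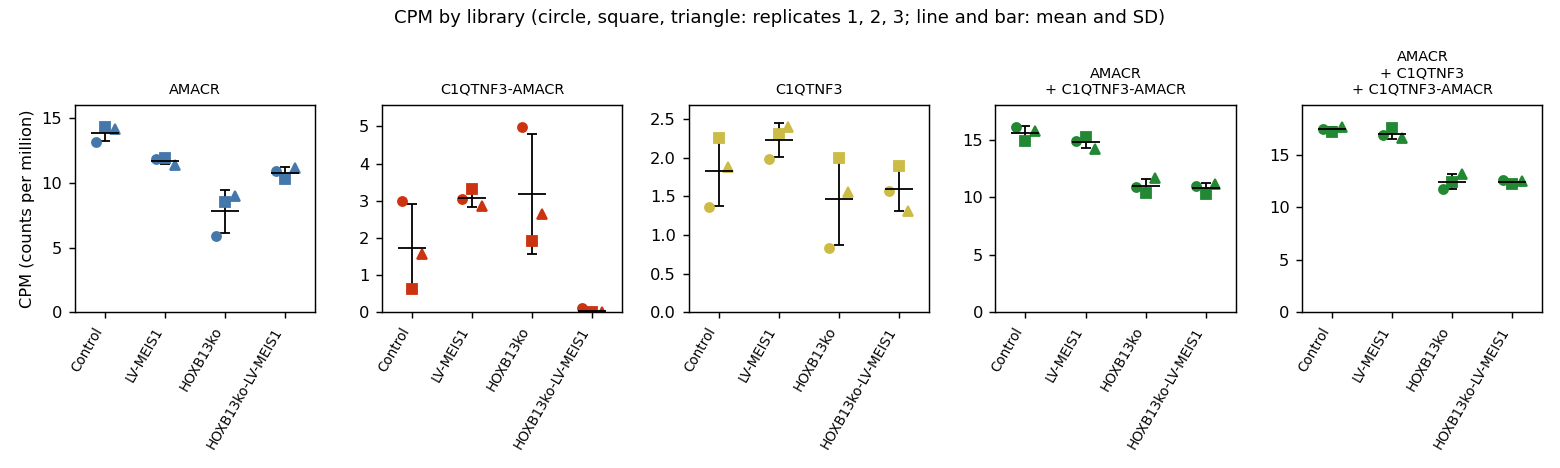
CPM by library in the 4 groups for AMACR, C1QTNF3-AMACR, C1QTNF3 and 2 sums, each on an axis that starts at 0, with the mean and SD of 3 replicates. The sum of AMACR and C1QTNF3-AMACR lies between 14.2 and 16.1 CPM in Control and LV-MEIS1 and between 10.3 and 11.6 CPM in the groups labelled HOXB13ko, while the readthrough alone overlaps between all groups but HOXB13ko-LV-MEIS1.

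With exogenous MEIS1 in the Control background, the locus as a whole differed little. All differences are of log2(CPM + 0.5), with the standard error (SE) from a limma fit over the 12 libraries, and n = 3 per group. The sum of AMACR and the readthrough differed by -0.08 ± 0.08 between LV-MEIS1 and Control (95% interval -0.24 to 0.09, limma eBayes test against no change with Benjamini-Hochberg adjustment over all genes, adjusted p = 0.456). AMACR alone differed by -0.23 ± 0.12 (-0.49 to 0.03, limma eBayes adjusted p = 0.132), although its libraries did not overlap between the groups, which held for 51.3% of all genes in this comparison. The SE of AMACR pools all 4 groups, and its SD was 1.66 CPM in HOXB13ko, against 0.66 in Control and 0.28 in LV-MEIS1. Without HOXB13ko replicate 1, which is in neither compared group, the AMACR difference was again -0.23 and the limma eBayes adjusted p was 0.0306. C1QTNF3 differed by 0.24 ± 0.22 (-0.23 to 0.71, adjusted p = 0.394 in limma's eBayes test), and by 0.09 without Control replicate 1 and 0.37 without Control replicate 2. The readthrough row differed by 0.83 ± 0.34 as a description, from 0.41 without Control replicate 2 to 1.23 without Control replicate 1.

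Summed with the readthrough, C1QTNF3 was higher in LV-MEIS1 than in Control by 0.53 ± 0.17 (1.44-fold, limma eBayes adjusted p = 0.0198). The libraries did not overlap for this sum (higher in 3 of 3 libraries), as held in either direction for 51.3% of all genes. This sum holds the readthrough row, which was chosen for its values over the 4 groups, so the p-value is no independent support. The row alone differed by 0.83 ± 0.34 and C1QTNF3 alone by 0.24 ± 0.22. In the higher direction 23.2% of all genes passed the eBayes test and 1.75% passed limma's treat test against a change of 1.5-fold, and in the lower direction the shares were 21.3% and 2.24%. Neither AMACR, C1QTNF3 nor any of their sums passed the treat test in this comparison (adjusted p = 1 by limma treat for each, 0 of 5 with an unadjusted p under 0.05). Without Control replicate 2, Control replicate 3 or LV-MEIS1 replicate 2, the summed row of C1QTNF3 and the readthrough no longer passed the limma eBayes test (adjusted p = 0.0940, 0.0511 and 0.0652).

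In HOXB13ko, AMACR was lower than in Control. AMACR alone was lower by a log2 difference of -0.81 ± 0.12 (1.75-fold, 95% interval -1.07 to -0.55, limma eBayes adjusted p = 2.1e-04), and the sum of AMACR and the readthrough was lower by a log2 difference of -0.49 ± 0.08 (1.40-fold, -0.65 to -0.32, limma eBayes adjusted p = 3.5e-04). The sum of the 3 rows gave -0.47 ± 0.07 (1.39-fold, adjusted p = 2.3e-04 in limma's eBayes test). For these 3 quantities all HOXB13ko libraries were below all Control libraries, as was the case or its opposite for 44.9% of all genes. Differences of this kind were common, since 16.4% of all genes were lower and 16.5% higher by the eBayes test. Against a change of 1.5-fold, limma's treat test passed none of the rows or sums (adjusted p = 1, with an unadjusted p under 0.05 for 1 of 5, AMACR alone), with 0.76% of all genes lower and 0.652% higher.

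The size of the AMACR difference depended on which rows were counted and on 1 library. Without HOXB13ko replicate 1, whose readthrough value was the highest, AMACR alone differed by -0.63, while the sum with the readthrough stayed between -0.53 and -0.45 whichever library was left out. C1QTNF3 differed between HOXB13ko and Control by -0.28 ± 0.22 (-0.75 to 0.19, limma eBayes adjusted p = 0.352) and by -0.02 without HOXB13ko replicate 1, -0.47 without HOXB13ko replicate 2, -0.43 without Control replicate 1 and -0.15 without Control replicate 2. The readthrough row differed by 0.79 ± 0.34 as a description, and by 0.36 without Control replicate 2, 1.19 without Control replicate 1 and 0.45 without HOXB13ko replicate 1. The SE of the readthrough row pools all 4 groups. SDs of that row were 1.19 CPM in Control and 1.61 in HOXB13ko, but 0.24 in LV-MEIS1 and 0.06 in HOXB13ko-LV-MEIS1. Its SE therefore understates the spread in both comparisons with Control. The SE of AMACR is pooled too, over SDs of 1.66 CPM in HOXB13ko, 0.66 in Control, 0.28 in LV-MEIS1 and 0.44 in HOXB13ko-LV-MEIS1. The AMACR SE and interval therefore understate the spread in the comparisons that include HOXB13ko. The sum of the readthrough row with C1QTNF3 differed by 0.34 ± 0.17 (limma eBayes adjusted p = 0.136), with overlapping libraries.

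MEIS1 in the HOXB13ko background went with a different division of the locus and with a sum that differed little. These values chose the members and are given without a test. From HOXB13ko to HOXB13ko-LV-MEIS1, AMACR was higher by 0.46 ± 0.12 and its libraries did not overlap, and the readthrough row was lower by a log2 difference of -2.70 ± 0.34, also without overlap. The sum of AMACR and the readthrough differed by -0.02 ± 0.08 (-0.19 to 0.15), the sum of the 3 rows by -0.00 ± 0.07, and C1QTNF3 by 0.13 ± 0.22, all with overlapping libraries. The sum of C1QTNF3 and the readthrough was lower by a log2 difference of -1.26 ± 0.17. Of all genes, 21.1% did not overlap in this comparison. The log2 difference of the readthrough row has no firm size, because its values in HOXB13ko-LV-MEIS1 are at or below 3 reads, and it was -4.58 with a pseudocount of 0.1 and -1.95 with one of 1. Without HOXB13ko replicate 1, AMACR was higher by 0.29.

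Between the 2 groups with exogenous MEIS1, all 3 rows and all sums were lower in CPM as deposited in HOXB13ko-LV-MEIS1 than in LV-MEIS1 in every library, a pattern without overlap that 58.3% of all genes shared in one direction or the other. The sum of AMACR and the readthrough differed by -0.43 ± 0.08 (1.35-fold lower, -0.60 to -0.27), beside -0.49 ± 0.08 for HOXB13ko against Control, a comparison that shares no library with this one although its knockout lines come from the same pool. AMACR alone differed by -0.11 ± 0.12 here (0.0090 after scaling by quantiles, the opposite sign), against -0.81 ± 0.12 in HOXB13ko against Control. The readthrough differed by -2.74 ± 0.34 and C1QTNF3 by -0.39 ± 0.22.

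**Figure D4:**
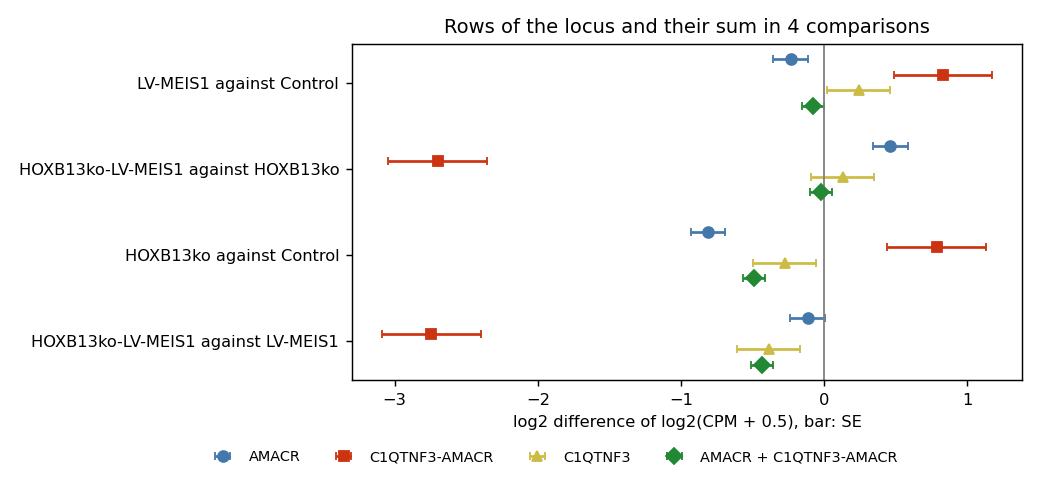
Difference of log2(CPM + 0.5) in 4 comparisons for AMACR, C1QTNF3-AMACR, C1QTNF3 and the sum of AMACR and C1QTNF3-AMACR, with bars for the SE (n = 3 per group). The sum lies near 0 in both comparisons of MEIS1 (-0.08 and -0.02) and near the same value in both comparisons of the HOXB13ko label (-0.49 and -0.43), while AMACR and the readthrough row lie on opposite sides of 0 in 3 of the 4.

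The spread between replicates was measured as the pooled SD of log2(CPM + 0.5) within groups. It was 0.519 for the readthrough row, 0.295 for C1QTNF3 and 0.161 for AMACR. The readthrough row was more variable than 97.0% of the 1997 genes with a mean CPM within 2-fold of its own, whose median was 0.225. The sum of AMACR and the readthrough had an SD of 0.0612, lower than all but 3.18% of 3676 genes of like level (median 0.119), and the sum of the 3 rows had 0.0478, lower than all but 0.917% of 3924 genes (median 0.114). On the CPM scale the within-group SD was 0.929 for AMACR and 1.01 for the readthrough, and 0.554 for their sum. Independent rows with those SDs would have given 1.37, so the sum varied 0.405 times as much over the 4 groups. This came from HOXB13ko (0.630 against 2.31 CPM from the parts) and Control (0.604 against 1.36 CPM). In LV-MEIS1 the sum had an SD of 0.511 CPM against 0.369 CPM from the parts, and in HOXB13ko-LV-MEIS1 it had 0.454 against 0.441 CPM.

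Other readthrough rows of the tables were examined in the same way, as rows whose symbol joins 2 listed symbols by a hyphen. There were 44 besides C1QTNF3-AMACR, with a median within-group SD of 0.392 (range 0.0538 to 1.51), and C1QTNF3-AMACR was the 16th most variable of the 45. The SD in CPM of the sum with the downstream partner, relative to independent rows, had a median of 0.827, was under 1 for 36 of 44, and was below that of C1QTNF3-AMACR for 4, namely ISY1-RAB43 (0.285), POC1B-GALNT4 (0.323), NEDD8-MDP1 (0.351) and TMEM56-RWDD3 (0.367), which were named after their values were seen.

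Values near 0 beside values of several CPM within a group also occurred in other readthrough rows. The 3 with the largest SD were TMEM189-UBE2V1 (1.51), PPT2-EGFL8 (1.26) and HSPE1-MOB4 (1.22). TMEM189-UBE2V1 was listed at 0, 2.70 and 0 CPM in Control and at 2.72, 2.12 and 4.83 CPM in LV-MEIS1. HSPE1-MOB4 was 4.02, 0 and 8.30 CPM in LV-MEIS1. In these groups a value of 0 stood beside values of several CPM in other replicates. The low values of C1QTNF3-AMACR took in all 3 replicates of 1 group, but that is why it was chosen. The other 3 were picked for a large SD within groups, so the contrast follows from the choices. Whether further readthrough rows were low in a whole group was not examined.

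**Figure D5:**
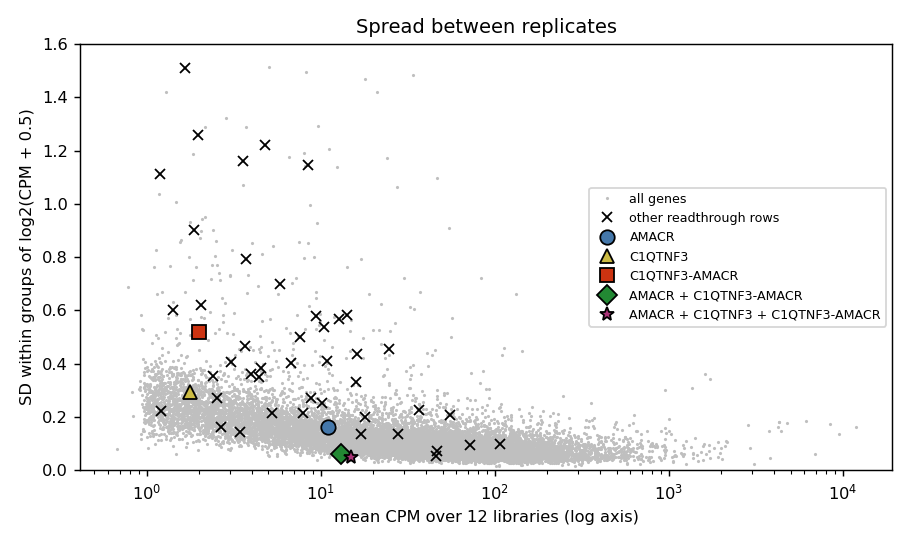
Within-group SD of log2(CPM + 0.5) against mean CPM over the 12 libraries (log axis) for all genes (grey points), 44 other readthrough rows (crosses), the 3 rows of the locus and 2 of their sums. C1QTNF3-AMACR lies above most genes of its level (0.519), and the sums with AMACR lie near the lower edge (0.0612 and 0.0478).

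Genes with a pattern like that of the sum of AMACR and the readthrough were ranked by Pearson's r of log2 values over the 12 libraries, among 11549 genes whose mean reached 5 CPM, as a description. The most alike were LRFN5 (r = 0.990), ROBO1 (0.976), CBLN2 (0.975), LEF1 (0.973) and IFT57 (0.969), which encode a synaptic adhesion protein, an axon guidance receptor, a secreted cerebellin, a transcription factor of Wnt signalling and a protein of intraflagellar transport. LRFN5 was 7.88 ± 0.76 and 7.32 ± 0.77 CPM in Control and LV-MEIS1 and 3.34 ± 0.13 and 3.27 ± 0.48 CPM in HOXB13ko and HOXB13ko-LV-MEIS1. ROBO1 was 128 ± 8.56 and 122 ± 2.24 CPM in the first pair of groups and 84.3 ± 5.20 and 81.2 ± 1.66 CPM in the second. The most opposite were RTN1 (r = -0.991), CREB3L4 (-0.987), HHAT (-0.983), SV2A (-0.979) and NRXN2 (-0.976). The points share libraries and groups, and a step between both pairs of groups is enough for a high r. AMACR alone had an r of 0.725 with the sum, and 1027 genes were more alike to the sum than it was, while C1QTNF3 and the readthrough had 0.408 and 0.432.

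Other genes of the AMACR pathway were higher as well as lower. Of 12 listed genes of peroxisomal branched-chain oxidation (of 14 looked up), limma's treat test passed 0 in either comparison with Control, also at an unadjusted p under 0.05. The eBayes test passed 4 higher and 1 lower in LV-MEIS1 and 3 higher and 2 lower in HOXB13ko, beside the shares of all genes given above, and the median log2 difference was 0.11 and 0.07 against 0.0073 and -0.0017 for all genes. ABCD3, a transporter of branched-chain acyl-CoA into peroxisomes, was 73.7 ± 6.58 CPM in Control and 100.7 ± 1.29 CPM in LV-MEIS1 (log2 difference 0.45 ± 0.06, limma eBayes adjusted p = 5.9e-05). CROT, which couples the shortened products to carnitine, was 66.5 ± 2.85 CPM in Control and 95.8 ± 4.14 CPM in HOXB13ko (0.52 ± 0.06, limma eBayes adjusted p = 1.9e-05). ACAA1, the thiolase of the pathway, was lower in HOXB13ko at 41.3 ± 1.5 CPM against 48.2 ± 4.01 CPM (-0.22 ± 0.07, limma eBayes adjusted p = 0.0218). HACL1 of alpha-oxidation had a log2 difference of 0.28 in HOXB13ko, and the thioesterase ACOT8 one of -0.40 in LV-MEIS1.

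Of 10 listed genes of other peroxisomal fatty acid oxidation, the treat test passed 1, the thioesterase ACOT4, which fell to 1.82 ± 0.33 CPM in LV-MEIS1, compared with 6.87 ± 1.42 CPM in Control (-1.66 ± 0.16, limma treat adjusted p = 1.9e-04). ACOT4 was 8.55 ± 1.03 CPM in HOXB13ko. Of all genes, the treat test passed 1.75% higher and 2.24% lower in LV-MEIS1, and 0.652% and 0.76% in HOXB13ko. By eBayes 2 genes were higher and 3 lower in each comparison, beside the shares of all genes (23.2% higher and 21.3% lower in LV-MEIS1, 16.5% and 16.4% in HOXB13ko). In HOXB13ko the bifunctional enzyme EHHADH differed by 0.56 and catalase (CAT) by 0.42. Of 16 peroxisome assembly genes limma's treat test passed 0, also at an unadjusted p under 0.05, and the eBayes test passed 5 higher and 2 lower in LV-MEIS1 and 1 higher and 0 lower in HOXB13ko, beside 23.2% and 21.3% of all genes in the first and 16.5% and 16.4% in the second. The log2 differences of PEX14 (-0.51) and PEX2 (0.40) were among the largest in LV-MEIS1, as were those of PEX7 (0.26) and PEX16 (-0.25) in HOXB13ko.

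Of 18 genes of mitochondrial beta-oxidation, which takes up the products that AMACR allows to form, the treat test passed ACADL. This long-chain acyl-CoA dehydrogenase fell to 5.66 ± 0.21 CPM in LV-MEIS1, compared with 21.7 ± 2.11 CPM in Control (-1.85 ± 0.08, limma treat adjusted p = 2.8e-08) and was 33.3 ± 0.69 CPM in HOXB13ko. Of all genes, the treat test passed 1.75% higher and 2.24% lower in LV-MEIS1, and 0.652% and 0.76% in HOXB13ko. The eBayes test passed 3 higher and 4 lower in LV-MEIS1 and 1 higher and 3 lower in HOXB13ko. Its shares of all genes were 23.2% and 21.3%, then 16.5% and 16.4%. In HOXB13ko ACADS (-0.51) and ACAA2 (-0.47) had the lowest log2 differences.

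For the family of C1QTNF3, 6 of 22 genes looked up were listed. CBLN2, a secreted cerebellin with a C1q domain, fell from 235 ± 3.44 CPM in Control to 95.7 ± 3.12 CPM in HOXB13ko (-1.29 ± 0.05, limma treat adjusted p = 2.1e-07) and was the only one that passed the treat test in either comparison. Of all genes, the treat test passed 1.75% higher and 2.24% lower in LV-MEIS1, and 0.652% and 0.76% in HOXB13ko. By eBayes 1 gene was higher and 2 lower in LV-MEIS1 and 1 higher and 1 lower in HOXB13ko. The eBayes shares of all genes were 23.2% and 21.3%, then 16.5% and 16.4%. The largest log2 differences in LV-MEIS1 were those of C1QL1 (0.96), C1QL4 (-0.40) and C1QTNF1 (0.33).

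Within 3 Mb on either side of the locus 23 genes were listed, with a median log2 difference of 0.20 in LV-MEIS1 and 0.12 in HOXB13ko (0.0073 and -0.0017 for all genes). The treat test passed 0 higher and 2 lower in LV-MEIS1, CDH6 and NPR3, beside 1.75% and 2.24% of all genes, and 0 higher and 1 lower in HOXB13ko, CDH6, beside 0.652% and 0.76%. At an unadjusted treat p under 0.05 it was 3 genes in each comparison. CDH6, a cadherin, was 48.8 ± 5.55 CPM in Control, 3.12 ± 0.61 CPM in LV-MEIS1 (-3.77 ± 0.12, limma treat adjusted p = 7.5e-11) and 17.5 ± 1.07 CPM in HOXB13ko (-1.45 ± 0.12, limma treat adjusted p = 2.7e-04). By eBayes 12 of the 23 were higher and 5 lower in LV-MEIS1, and 9 were higher and 1 lower in HOXB13ko. The shares of all genes were 23.2% higher and 21.3% lower in LV-MEIS1 and 16.5% and 16.4% in HOXB13ko, and the list was not tested against them. Of the nearest listed genes, SUB1, TARS and RAD1 differed from Control in HOXB13ko by 0.20, 0.19 and 0.16, RAI14 by -0.09, TTC23L by -0.59 and the natriuretic peptide receptor NPR3 by 0.90 (limma treat adjusted p = 0.107). In LV-MEIS1 the log2 differences were 0.21 for SUB1, 0.10 for TARS, 0.20 for RAD1, 0.43 for RAI14, 0.89 for TTC23L and -1.46 for NPR3.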

How the data were processed

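The deposited values are CPM. To make them, the authors used Trimmomatic 0.38 on 50-base single-end reads, kallisto 0.43.1 to estimate the abundance of GRCh38 transcripts from Ensembl, tximport to collapse estimated counts to genes, and edgeR 3.22.2 to filter and normalise. kallisto divides reads shared by several transcripts, and strand was not stated to be used. Of 13993 rows, 42 exact repeats were removed.

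Only 48.4% to 62.3% of values below 1 CPM came within 0.1 of a whole read, so whole reads could not be restored and count models were not used. Log2(CPM + 0.5) was fitted in limma 3.58.1 (R 4.3.3) with 1 mean per group and a trended prior. The main test was treat against 1.5-fold, and eBayes against no change was an alternative. Calls used a Benjamini-Hochberg adjusted p under 0.05 over all genes, and the method was tested on simulated data. Sums replaced their parts in the table. Fold changes on this scale understate those of low genes.

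The members and lists were chosen with earlier results of these data known. Named genes were the members, list genes passing treat or otherwise the 3 with the largest differences, the 3 nearest listed genes on each side, and the genes and readthrough rows highest on the measures given. Not every such gene is named for both comparisons, and some are not reported here. Exons and sequences came from a GENCODE annotation and the sequence of GRCh38, whose release may differ from that used by the authors. Alternatives were other pseudocounts, a filter, 3 scalings, a fit of 6 libraries, a replicate term and leaving out each library. Leaving out libraries under eBayes was added after seeing the data.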

Additional observations from a re-analysis of the deposited data

Results flagged for a closer look

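The difference between the effect of MEIS1 in HOXB13ko cells and in Control cells is given as the log2 difference in LV-MEIS1 against Control minus that in HOXB13ko-LV-MEIS1 against HOXB13ko. For AMACR it was -0.70, as every LV-MEIS1 library was below every Control library and every HOXB13ko-LV-MEIS1 library was above every HOXB13ko library. For C1QTNF3 with C1QTNF3-AMACR it was 1.79, with the opposite directions. The difference was not tested for either, because both rest on the values that chose the members. For AMACR with C1QTNF3-AMACR it was -0.05 ± 0.11 (SE). Of all genes, 51.3% did not overlap between LV-MEIS1 and Control and 21.1% between HOXB13ko-LV-MEIS1 and HOXB13ko. How many did so in opposite directions was not counted.

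Among the other genes named, the difference passed limma's treat test with Benjamini-Hochberg adjustment for ACOT4 (-1.74 ± 0.22, adjusted p = 0.0036), ACADL (-1.79 ± 0.12, adjusted p = 4.7e-06), CDH6 (-3.37 ± 0.16, adjusted p = 4.3e-08) and NPR3 (-1.44 ± 0.13, adjusted p = 3.9e-04). Of all 13951 genes, treat passed 409 for this difference and 1 in HOXB13ko-LV-MEIS1 against HOXB13ko. These genes had already passed treat in LV-MEIS1 against Control, which is part of the difference, so passing here is no separate support. In HOXB13ko-LV-MEIS1 against HOXB13ko, ACOT4 differed by 0.08 ± 0.16, ACADL by -0.06 ± 0.08, CDH6 by -0.41 ± 0.12 and NPR3 by -0.02 ± 0.09.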

How the results depend on the processing

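Against no change rather than against 1.5-fold, limma's eBayes passed 4 results that treat did not, namely AMACR (-0.81), AMACR with C1QTNF3-AMACR (-0.49) and the 3 rows together (-0.47) in HOXB13ko against Control, and C1QTNF3 with C1QTNF3-AMACR (0.53) in LV-MEIS1 against Control. The number of genes called went from 557 to 6207 for LV-MEIS1 and from 197 to 4590 for HOXB13ko, each compared with Control. Leaving out each of the 12 libraries in turn under eBayes kept the 3 HOXB13ko results past the threshold, at -0.92 to -0.63 for AMACR, -0.53 to -0.45 for AMACR with C1QTNF3-AMACR and -0.51 to -0.43 for the 3 rows (highest adjusted p = 0.0030 by limma eBayes). It left C1QTNF3 with C1QTNF3-AMACR past it in 9 of 12 fits in LV-MEIS1 against Control (0.40 to 0.67), in 1 of 12 in HOXB13ko against Control (0.18 to 0.48), and AMACR in 1 of 12 in LV-MEIS1 against Control (-0.27 to -0.21, limma eBayes adjusted p = 0.0306 without HOXB13ko replicate 1).

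Pseudocounts of 0.1 and 1 moved the log2 differences of C1QTNF3-AMACR to -4.58 and -1.95 in HOXB13ko-LV-MEIS1 against HOXB13ko, -4.64 and -1.98 against LV-MEIS1, and 5.61 and 2.62 between the MEIS1 effects, and that of its sum with C1QTNF3 between the MEIS1 effects to 2.03 and 1.57. Its within-group SD was 0.699 and 0.425. Scaling by quantiles turned the sign of AMACR in HOXB13ko-LV-MEIS1 against LV-MEIS1 (0.0090 instead of -0.11) and of AMACR with C1QTNF3-AMACR in HOXB13ko-LV-MEIS1 against HOXB13ko (0.0327 instead of -0.02), and moved AMACR with C1QTNF3-AMACR to -0.32 in HOXB13ko-LV-MEIS1 against LV-MEIS1 and -0.16 between the MEIS1 effects, and the 3 rows to -0.35, -0.12 and, in HOXB13ko-LV-MEIS1 against HOXB13ko, 0.0473. The cause was not tested. Leaving out 1 library at a time gave 0.29 to 0.57 for AMACR in HOXB13ko-LV-MEIS1 against HOXB13ko and -0.81 to -0.52 between the MEIS1 effects, in both cases nearest 0 without HOXB13ko replicate 1, and turned the sign of C1QTNF3 in that comparison (-0.12 without that library). Genes called by treat were 471 to 556 and 146 to 194.

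Replicate numbers did not pair the samples, as the residual correlation of same-numbered libraries was -0.21 to 0.15 over 18 pairs and above 0.1 in 2. With a replicate block, 522 genes were called for LV-MEIS1 and 166 for HOXB13ko, each compared with Control, and the block changed no call of the members, with AMACR and C1QTNF3-AMACR together at -0.49 in HOXB13ko against Control. Scalings moved the median of all genes by at most 0.0386. The values of C1QTNF3-AMACR in HOXB13ko-LV-MEIS1 are at or below 3 reads, so a low level cannot be told from none. Estimated depth of those libraries was 24840000 to 26260000 reads, within the range of all libraries, and the cause of the low values was not tested.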
